A study of Homo sapiens with 36 samples.

Results

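DDB2, its partner DDB1 and the other parts of the CUL4 ubiquitin ligase were followed across 4 groups of U373 cells, a human glioblastoma line that makes no CC3/TIP30 of its own. The genes were taken as DDB2, DDB1, CUL4A, CUL4B, RBX1, DDA1, CRBN and DTL, and every array probe whose annotated symbol, or an older alias of it, was among them was used. All 8 genes were measured, with 9 probes of the 13041 that carried values. DDA1, present on the array under the older symbol C19orf58, had 2 probes and each other gene had 1, and all 9 gave a value on every array. U373neo is a clone stably transfected with empty vector and U373cc3 a clone stably transfected with CC3, a protein that restrains transport into the nucleus, and both were harvested untreated or 2 h after UV. The labels, and the study's legend to its table of UV-changed transcripts, give a UV dose of 20 J/m2. The methods of the study give a lower dose for the array experiment. Each group held 3 biological replicates with 3 technical arrays each, so 36 arrays in all. Each CC3 state was represented by 1 clone, so the p-values measure the spread between samples of a clone, and apart from the label "biological replicate" nothing in the labels says that the samples were separate cultures.

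The hybridizations were alike within groups, with correlations of 0.979 to 0.996 between technical arrays of a replicate and of 0.970 to 0.996 between replicates of a group. The probe of HTATIP2, the gene for CC3, held no values, so the transgene was not read here. Of 11 astrocyte and glioma markers, EGFR and SOX9 had values, whereas GFAP, S100B and VIM were among those without. Of the markers of other cells, CD14 of 5 leukocyte genes, none of 5 epithelial genes and 4 of 5 neuronal genes (MAP2, SNAP25, SYP and TUBB3) had values. The summed intensity of those 4 neuronal genes ranged from 11624 to 11752 in untreated U373neo and from 12860 to 13256 in untreated U373cc3, and its part in the differences between the clones was not tested. Array serial numbers in the labels fall into 3 ranges, called A, B and C here, and the groups were spread unevenly over them, with all 9 arrays of UV-treated U373neo in range A.

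CUL4A and CUL4B are the scaffolds of a family of ubiquitin ligases. At one end the cullin holds RBX1, the RING protein that brings in the ubiquitin-charged enzyme, and at the other DDB1, an adaptor that docks exchangeable substrate receptors. DDB2, mutated in xeroderma pigmentosum group E, is the receptor that binds UV photoproducts in chromatin and with DDB1 starts global genome nucleotide excision repair. It ubiquitinates histones and XPC at the lesion and is itself degraded early after UV. DTL (also CDT2) is the receptor that removes CDT1, p21 and SET8 when PCNA is loaded on DNA, in S phase and after UV. CRBN is the receptor bound by thalidomide and its analogues, and DDA1 is a small core subunit that sits on DDB1. In many human cells DDB2 is a transcriptional target of p53, which U373 cells lack in functional form according to the study.

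The promoter windows of DDB2 and DTL, the members with the clearest response to UV below, are shown because they carry the recognition letters of the factors best known to act on these genes. RefSeq windows of 300 bases, from 250 before to 50 after an annotated start (GRCh38.p14), were found for 7 of the 8 members, 15 windows in all. DDB2 has 2 such windows and the downstream one, on chromosome 11, plus strand, chr11:47214724-47215023, is printed with the p53 element and the overlapping letters TTTGGCG, a common form of the E2F site, in capitals. The DTL window, on chromosome 1, plus strand, chr1:212035498-212035797, has its copies of TTTGGCG in capitals.
DDB2: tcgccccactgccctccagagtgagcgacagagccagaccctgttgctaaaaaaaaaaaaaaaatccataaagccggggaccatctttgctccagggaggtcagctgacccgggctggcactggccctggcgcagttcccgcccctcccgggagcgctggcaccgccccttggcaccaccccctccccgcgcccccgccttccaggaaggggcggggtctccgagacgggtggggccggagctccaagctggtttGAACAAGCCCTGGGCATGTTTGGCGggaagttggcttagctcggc
DTL: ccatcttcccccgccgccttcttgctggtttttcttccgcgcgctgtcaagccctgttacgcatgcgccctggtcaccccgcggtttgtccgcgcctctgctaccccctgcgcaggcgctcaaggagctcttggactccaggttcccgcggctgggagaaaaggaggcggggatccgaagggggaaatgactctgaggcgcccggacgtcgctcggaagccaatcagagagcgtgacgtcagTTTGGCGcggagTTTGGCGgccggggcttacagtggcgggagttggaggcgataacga
A p53 element was sought as 2 perfect copies of the p53 decamer at most 13 bases apart, which reads the same on both strands, and TTTGGCG and the SP1-type GC box GGGCGG on both strands. In the DDB2 window the p53 element covers 21 bases from position 6 to position 26 after the start, and TTTGGCG covers positions 24 to 30. Among 35116 windows of the same length, 10 held a p53 element (0.0285%) and 673 held TTTGGCG (1.92%). The DTL window held TTTGGCG at 2 places, 8 to 2 bases before the start and 5 to 11 after it, and no GGGCGG. The GC box, found in 45% of all windows, was in 9 of the 15 member windows, with 8 copies in the most downstream window of CUL4A. The other 6 members with a window had no p53 element, and the 5 other than DDB2 and DTL had no TTTGGCG. These matches describe letters, and binding was not measured.

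**Figure D1:**
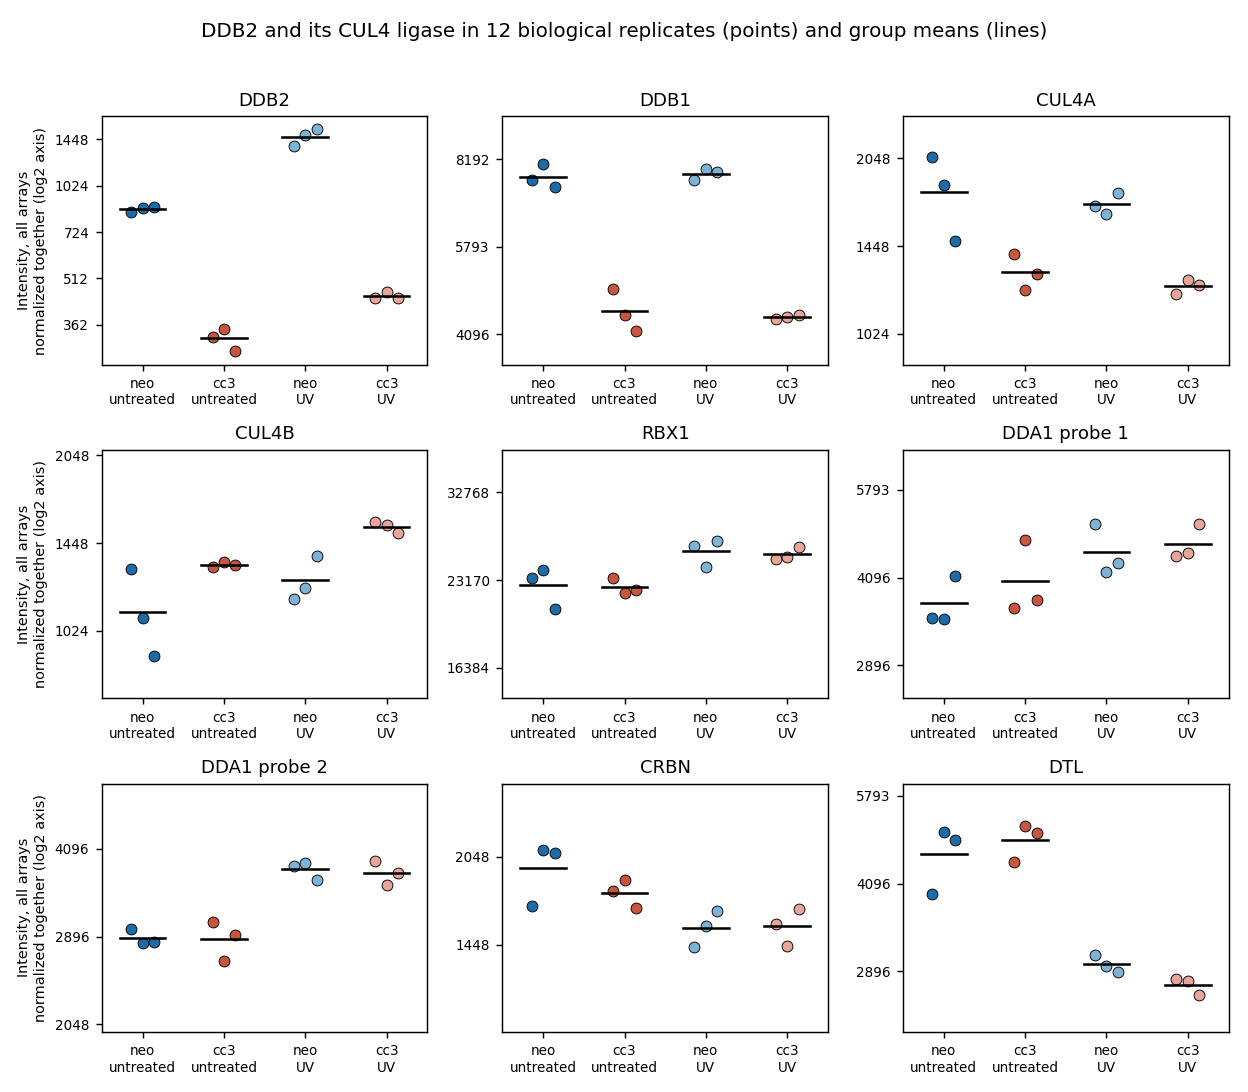
Intensity (vertical, log2 axis, all arrays normalized together, arbitrary units) of the 9 member probes in the 4 groups (horizontal), with a point for each of 3 biological replicates and a line at the group mean. DDB2 separates all 4 groups, DDB1 and CUL4A lie lower in both U373cc3 groups, and DTL lies lower in both UV groups.

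DDB2 was lower in U373cc3 in either condition and rose after UV in both clones. On the intensities as deposited, which are normalized values in arbitrary units on a linear scale, untreated U373neo gave 910, 937 and 943 and untreated U373cc3 354, 376 and 318. The means were 930.3 ± 17.5 and 349 ± 29.0 (SD, n = 3 each), and the lowest U373neo replicate was well above the highest U373cc3 replicate. Of 12300 probes, 22.6% had all U373cc3 replicates below all U373neo replicates and 26.9% above, and after UV 26.2% and 24.8% of 12343. Across the 9 arrays of each group the DDB2 values ran from 859 to 1003 in U373neo and from 289 to 412 in U373cc3, so that the groups were apart array by array as well. The difference was 2.67-fold (log2 -1.42, SE 0.08, limma adjusted p = 1.51e-07). After UV the U373neo replicates gave 1274, 1390 and 1449 and the U373cc3 replicates 407, 425 and 407, a difference of 3.31-fold (log2 -1.73, adjusted p = 3.24e-08). In cell extracts of this kind fewer cells with the transcript and less transcript in each cell cannot be told apart.

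For the UV response the arrays of both treatments were brought to a common scale, since the untreated and the UV arrays had been normalized apart. On that scale DDB2 in U373neo went from 840, 865 and 871 to 1372, 1497 and 1561, and in U373cc3 from 331, 352 and 299 to 442, 461 and 443. No untreated replicate overlapped with a UV replicate of its clone. Of 11602 probes, 35.7% in U373neo and 35.2% in U373cc3 had all UV replicates above all untreated ones. All lay below for 28.6% and 30.2%. The rise of DDB2 was 1.72-fold in U373neo (log2 0.78, SE 0.07, adjusted p = 4.14e-06) and 1.37-fold in U373cc3 (log2 0.46, SE 0.07, adjusted p = 3.14e-04). The highest UV replicate of U373cc3, at 461, stayed below the lowest untreated replicate of U373neo, at 840. The values as deposited gave smaller rises, log2 0.56 in U373neo and 0.25 in U373cc3 (adjusted p = 0.0157). Within serial range A the rises were 0.75 and 0.40, and within range B, which holds both U373cc3 groups, 0.52.

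DDB1, the adaptor on which DDB2 and the other receptors of this family dock, was lower in U373cc3 in either condition, and its UV change did not pass the test in either clone. Its intensities were 7518, 7960 and 7323 in untreated U373neo and 5003, 4534 and 4280 in untreated U373cc3, with no overlap. After UV they were 7566, 7921 and 7823 in U373neo and 4225, 4263 and 4304 in U373cc3. The clones differed 1.65-fold untreated (log2 -0.72, SE 0.07, adjusted p = 1.30e-05) and 1.82-fold after UV (log2 -0.87, adjusted p = 2.98e-06). The UV change on the common scale was log2 0.02 in U373neo (95% confidence interval -0.14 to 0.17, adjusted p = 0.845) and -0.03 in U373cc3 (-0.19 to 0.12, adjusted p = 0.726). With each array centred on its median instead, the U373neo value became 0.27 (adjusted p = 0.00414). Within serial ranges A, B and C the untreated difference between the clones was -0.66, -0.69 and -0.96.

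Of the alternative scaffolds, CUL4A was lower in U373cc3 in either condition, and CUL4B was called higher there after UV. CUL4A was at 2195, 1966 and 1585 in untreated U373neo and at 1503, 1311 and 1392 in untreated U373cc3, so that the lowest U373neo replicate was just above the highest U373cc3 replicate. After UV it was at 1578, 1528 and 1662 in U373neo and at 1109, 1172 and 1152 in U373cc3, again without overlap. The differences were 1.36-fold (log2 -0.44, SE 0.11, adjusted p = 0.00714) and 1.39-fold (log2 -0.47, adjusted p = 0.00426). The untreated difference was uneven over the array ranges, at -0.27, -0.17 and -0.82 in A, B and C, and a fit on range A alone, with the replicate as a random block, gave log2 -0.25 with an adjusted p of 0.260 untreated and an adjusted p of 0.0550 after UV. With the test named in the methods of the study and Benjamini-Hochberg adjustment the untreated value had an adjusted p of 0.112. The UV change of CUL4A did not pass the test in U373neo (log2 -0.06, 95% confidence interval -0.29 to 0.17) or in U373cc3 (-0.08, -0.31 to 0.15), except that the deposited values gave -0.29 in U373cc3 (adjusted p = 0.0334).

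CUL4B was at 1403, 1165 and 1002 in untreated U373neo and at 1414, 1442 and 1422 in untreated U373cc3. The U373cc3 replicates all lay higher, the closest U373neo replicate being the first, whose arrays were all of serial range C. The untreated difference missed the threshold (log2 0.27, adjusted p = 0.0676) and passed it without that replicate (log2 0.40, adjusted p = 0.00607) or with the serial range in the model (log2 0.33, adjusted p = 0.0187). Within ranges A, B and C it was 0.45, 0.44 and 0.00. After UV the replicates were 1075, 1123 and 1278 in U373neo and 1462, 1449 and 1402 in U373cc3, 1.24-fold higher in the latter (log2 0.31, SE 0.11, adjusted p = 0.0397). This call remained when U373neo untreated replicate 1 or 3 or U373neo UV replicate 3 was left out and was lost without any of the other 9 replicates (adjusted p = 0.0509 to 0.121). CUL4B did not pass the test for UV in U373neo (log2 0.19, adjusted p = 0.150) or U373cc3 (log2 0.22, adjusted p = 0.106). It passed in both when U373neo untreated replicate 1 was left out (adjusted p = 0.00934 and 0.0345). Over the 23 alternatives run its adjusted p ranged from 0.00934 to 0.846 in U373neo and from 3.41e-04 to 0.934 in U373cc3.

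RBX1, the RING subunit, differed little between the clones. Its replicates lay between 19774 and 22947 in untreated U373neo and between 21014 and 22243 in untreated U373cc3, and overlapped. The difference was log2 -0.01 untreated (95% confidence interval -0.17 to 0.15) and -0.02 after UV (-0.18 to 0.14). On the common scale RBX1 went from 23342, 24112 and 20682 to 26499, 24355 and 27019 in U373neo and from 23348, 22006 and 22321 to between 25137 and 26443 in U373cc3, with no UV replicate below an untreated replicate of its clone. The rise was 1.14-fold in both (log2 0.19, adjusted p = 0.0378, and log2 0.18, adjusted p = 0.0478). Both calls were close to the threshold. In U373neo the call was lost without U373neo untreated replicate 3, U373cc3 untreated replicate 3, or U373neo UV replicate 1 or 3 (adjusted p = 0.0517 to 0.156). In U373cc3 it was lost without any replicate of the other 3 groups and remained without any of the untreated U373neo replicates (adjusted p when lost, 0.0505 to 0.125). The size of the rise rested on the scaling, being log2 0.33 and 0.32 on the deposited values and 0.57 and 0.56 with arrays centred on their medians.

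DDA1, the small core subunit, was read by a pair of probes, of which the second rose after UV in both clones and the first in U373neo. The second probe went from 2981, 2826 and 2840 to 3833, 3868 and 3630 in U373neo and from 3075, 2630 and 2918 to 3900, 3553 and 3726 in U373cc3. The UV replicates all lay above the untreated ones, with a rise of 1.31-fold in U373neo (log2 0.39, SE 0.07, adjusted p = 6.02e-04) and 1.30-fold in U373cc3 (log2 0.38, adjusted p = 9.79e-04). On the deposited values these rises were log2 0.26 and 0.25. Of the 40 measured genes beside DDA1 on chromosome 19, 21 rose and 5 fell in U373neo (median log2 0.31) and 18 rose and 5 fell in U373cc3 (median 0.17). The chromosome as a whole was alike. Of 506 measured genes, 266 rose and 62 fell in U373neo (median 0.27), and 222 rose and 84 fell in U373cc3 (median 0.18). The first probe was noisier, with replicates of 3491, 3478 and 4124 before and 5061, 4190 and 4341 after UV in U373neo. Its rise of log2 0.29 in U373neo had an adjusted p of 0.0485, and that of 0.22 in U373cc3 one of 0.130. The U373neo call remained without U373neo untreated replicate 3, U373cc3 untreated replicate 1 or 2, or U373neo UV replicate 2, and was lost without any of the other 8 replicates (adjusted p = 0.0501 to 0.174). The U373cc3 value passed without U373cc3 untreated replicate 2 (log2 0.34, adjusted p = 0.0241). Neither probe differed between the clones beyond the spread of the replicates, the 4 values lying between log2 -0.02 and 0.12.

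Of the receptors that share DDB1 with DDB2, DTL fell after UV in both clones and CRBN in U373neo. DTL went from 3930, 5017 and 4864 to 3095, 2952 and 2893 in U373neo, and from 4469, 5150 and 5004 to 2814, 2786 and 2638 in U373cc3. Every UV replicate was below every untreated one. The fall was 1.54-fold in U373neo (log2 -0.62, SE 0.09, adjusted p = 1.42e-04) and 1.77-fold in U373cc3 (log2 -0.83, SE 0.09, adjusted p = 2.34e-05), and within serial range A it was -0.71 and -0.80. Of the 40 measured genes beside DTL on chromosome 1, 9 fell as far or further in U373neo and 1 in U373cc3. The clones did not separate in DTL before UV (log2 0.08, 95% confidence interval -0.12 to 0.28), and after UV, when all U373cc3 replicates lay below those of U373neo, the difference was log2 -0.12 (adjusted p = 0.333), which passed with the serial range in the model (log2 -0.19, adjusted p = 0.0117).

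CRBN went from 1689, 2103 and 2082 to 1435, 1558 and 1655 in U373neo and from 1788, 1873 and 1676 to 1569, 1438 and 1664 in U373cc3. In each clone the highest UV replicate was just below the lowest untreated one. The fall passed the test in U373neo (1.26-fold, log2 -0.33, adjusted p = 0.0116), where the test named in the methods gave an adjusted p of 0.0866. In U373cc3 it was log2 -0.19 with an adjusted p of 0.110, which became 0.0143 with arrays in place of replicate means and 0.00496, at log2 -0.39, on the deposited values. The deposited values also gave a larger fall in U373neo, log2 -0.53. Between the clones CRBN differed by log2 -0.13 untreated (95% confidence interval -0.35 to 0.08) and by 0.01 after UV (-0.21 to 0.22).

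**Figure D2:**
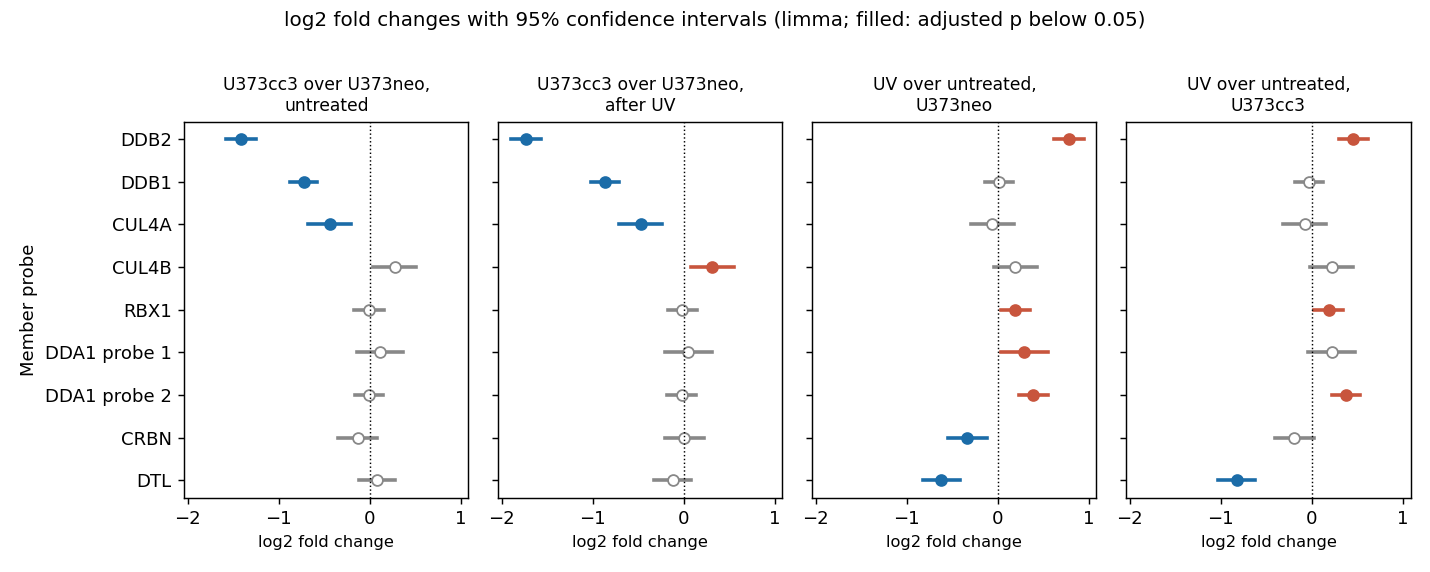
log2 fold change (horizontal) of the 9 member probes (vertical) in 4 comparisons, with 95% confidence intervals from limma as bars. Filled points passed an adjusted p of 0.05, red higher and blue lower. The clone differences are in DDB2, DDB1 and CUL4A, with CUL4B higher after UV, and the UV changes are in DDB2, RBX1, DDA1, CRBN and DTL.

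In numbers, 3 of the 9 probes were lower and 0 higher in untreated U373cc3, against 17.1% of the 12300 probes tested called lower and 20.5% called higher (37.6% in all). After UV 3 were lower and 1 higher, against 19.8% and 18.2% of 12343 probes (38% in all). For the UV response 4 probes of the 9 were higher and 2 lower in U373neo, against 32.8% and 26.7% of 11602 probes (59.5% in all), and 3 were higher and 1 lower in U373cc3, against 30.8% and 26.9% (57.7% in all). The scaling moved this balance, with 55.1% of the called probes higher in U373neo on the common scale, 42.2% on the deposited values and 65.5% with arrays centred on their medians, and 53.4%, 38.6% and 66.6% in U373cc3. The median change over all probes went with it, from log2 0.07 to -0.05 and 0.19 in U373neo and from 0.06 to -0.04 and 0.20 in U373cc3. With so many probes called over the whole array, these counts do not set the ligase apart from other genes. The same holds for replicates without overlap, given the shares of all probes printed with DDB2 above. The clone comparisons and the UV comparisons share samples, so the values of the members in them are not independent of each other.

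The UV changes of the clones were then set against each other. None of the 9 member probes passed this test (6.17% of 11602 probes did, 2.18% with the higher and 3.99% with the lower change in U373cc3). The furthest of them from 0 was DDB2, whose rise in U373cc3 was smaller by log2 0.32 (value -0.32, SE 0.11, 95% confidence interval -0.55 to -0.09, limma adjusted p = 0.0914). Of all probes tested, 12.9% had a value at or below that of DDB2. Over the 21 alternatives run, the adjusted p of the DDB2 difference ranged from 0.0559 to 0.187. DTL fell further in U373cc3 by log2 0.21 (value -0.21, interval -0.50 to 0.08, adjusted p = 0.361). For CRBN the difference was 0.14 (interval -0.16 to 0.44). The intervals of DDB1, CUL4A, CUL4B, RBX1 and DDA1 all held 0, with values between -0.07 and 0.03.

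The 3 members lower in untreated U373cc3 lie on chromosomes where most measured genes were lower in that clone. DDB2 and DDB1 are on chromosome 11, at separate places, and CUL4A is on chromosome 13, whereas CUL4B is on chromosome X, RBX1 on 22, DDA1 on 19, CRBN on 3 and DTL on 1. Of the other 496 measured genes of chromosome 11, 325 were called lower (median log2 -0.47), and of 135 of chromosome 13, 120 (median -0.75). Of the 20 measured genes on either side of DDB1, 36 of 40 were called lower, with a median of -0.66, and 16 of them were at or below the DDB1 value of -0.72. CUL4A had 28 measured neighbours, of which 25 were lower, and with 22 at or below it CUL4A was among the less affected genes of its stretch (median -0.70). Around DDB2 34 of 40 neighbours were called lower and 3 higher, with a median of -0.64. DDB2 went beyond most of this lowered stretch, 2 of the 40 being at or below its value. The neighbours of the other 5 members had medians between 0.00 and 0.17. Gene copy number was not measured, and its part in these differences was not tested.

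**Figure D3:**
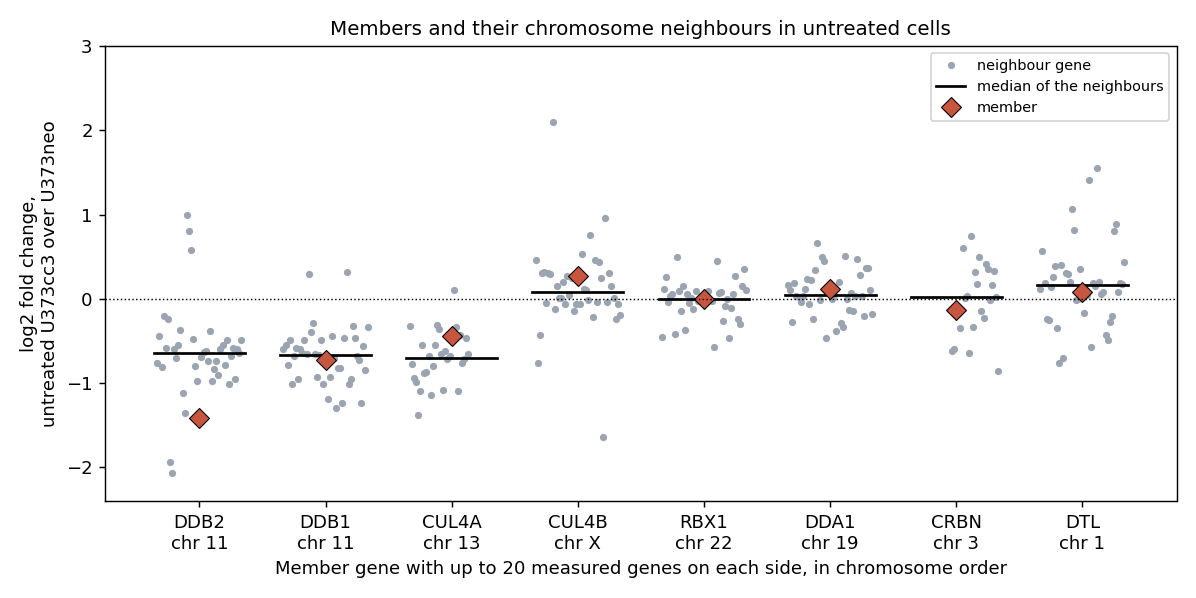
log2 fold change of untreated U373cc3 over U373neo (vertical) for each member gene (diamond) and up to 20 measured genes on each side of it (grey points, in chromosome order), with the median of the neighbours as a line. DDB1 lies near its neighbours' median of -0.66, CUL4A above its own of -0.70, and DDB2 below nearly all of its neighbours.

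After UV 12 of the 40 neighbours of DDB2 rose and 11 fell in U373neo, and 13 rose and 13 fell in U373cc3. They had a median UV change of log2 0.04 in U373neo and 0.06 in U373cc3, and 38 of them in U373neo and 36 in U373cc3 had a value at or below that of DDB2. The 5 gene probes whose intensities ran most closely with DDB2 over the 12 biological replicates were those of SLC29A4 (Pearson r = 0.995), RNASEH2B (0.994), HES6 (0.993), NTS (0.991) and MIPEP (0.991). Of these RNASEH2B and MIPEP are on chromosome 13, and none is on chromosome 11. They were lower in untreated U373cc3 by log2 1.07 (value -1.07, MIPEP) to 1.75 (value -1.75, RNASEH2B), and their UV changes lay between 0.38 and 0.77. These correlations are over 4 groups of 3 replicates from shared hybridizations and describe the group means more than the spread within groups. Among the members, DDB2 and DDB1 had r = 0.917 and DDB1 and CUL4A 0.907, the genes lower in U373cc3. DTL ran against the second DDA1 probe (r = -0.947) and against RBX1 (-0.838), which rose where it fell.

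The genes that work with the ligase were read from lists compiled from general knowledge of the pathway. Over all 7986 measured genes, taking the brightest probe of each, 32.2% were called higher and 30.1% lower after UV in U373neo, and 27.9% and 30% in U373cc3. Other CRL4 substrate receptors, most of them WD40 proteins known as DCAFs, were lower more often than higher. Of 21 measured, 4 rose and 10 fell in U373neo (median log2 -0.25) and 5 rose and 11 fell in U373cc3 (median -0.31), where the median of all genes was 0.04 and 0.02. On the deposited values 4 rose and 11 fell in U373neo and 0 rose and 11 fell in U373cc3, and with centred arrays 5 rose and 8 fell, and 6 rose and 10 fell. COP1, which targets JUN and p53, changed by -1.14 in U373neo and -0.72 in U373cc3. PHIP, a bromodomain receptor, changed by -0.96 and -0.56, and DET1, a partner of COP1, by -0.90 and -0.83. BRWD1 had a large but uncertain fall in U373cc3 (log2 -1.44, SE 0.56, adjusted p = 0.0465), which was lost when any replicate of the 3 groups other than U373neo UV was left out (adjusted p = 0.0572 to 0.151).

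Of 4 measured partners of RBX1, the enzymes that pass ubiquitin on, 3 fell and 0 rose in each clone. Among all genes 30.1% were called lower and 32.2% higher in U373neo, and 30% and 27.9% in U373cc3. The 3 falls remained on the deposited values and with centred arrays, where 1 partner rose in U373cc3. UBE2R2, a CDC34-type E2, changed by log2 -1.45 in U373neo and -1.07 in U373cc3, ARIH1, an RBR ligase that primes CRL substrates, by -1.05 and -0.79, and UBE2G1, an E2 that extends chains on CRL4 substrates, by 2-fold (adjusted p = 7.98e-06) and 1.95-fold (adjusted p = 1.52e-05) downward. In the list of NEDD8 conjugation and cullin exchange 1 gene rose and 5 fell of 10 measured, in either clone. The deposited values gave 1 and 6 in U373neo and 0 and 6 in U373cc3, and centred arrays 1 and 5, and 2 and 5. DCUN1D4 and DCUN1D5, which help load NEDD8 on cullins, changed by -0.93 and -0.92 in U373neo and by -0.93 and -0.66 in U373cc3. CAND2, an exchange factor, rose by 0.54 and 0.36 (in U373cc3 by 0.13 on the deposited values, adjusted p = 0.132). The COP9 signalosome, which removes NEDD8, had 2 of 7 measured genes higher and 1 lower in each clone, GPS1 at 0.69 and 0.57 and COPS2 at -0.43 and -0.35. With centred arrays 4 were higher in U373neo and 3 in U373cc3, and on the deposited values 2 and 3, with 1 lower throughout. The COPS8 call in U373cc3 remained without U373cc3 untreated replicate 1 or 3 or any U373neo UV replicate and was lost without any of the other 7 replicates (adjusted p = 0.0522 to 0.196).

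Among the other cullins and their adaptors, all 7 measured genes were called in U373neo, 4 higher and 3 lower, and 6 in U373cc3, 3 in each direction. Of all genes, 32.2% were called higher and 30.1% lower in U373neo, and 27.9% and 30% in U373cc3. Of these 7 genes, 2 were higher and 3 lower in both clones on the deposited values, and with centred arrays 4 were higher and 3 lower in U373neo and 4 higher and 2 lower in U373cc3. The scaffolds CUL5, CUL1 and CUL2 changed by log2 -0.93, -0.89 and -0.75 in U373neo and by -0.58, -0.69 and -0.25 in U373cc3, where the CUL2 value became -0.06 with centred arrays (adjusted p = 0.468), whereas the adaptor ELOB, an elongin, rose by 0.69 and 0.54. CUL4A and CUL4B passed in neither clone in the main fit on the common scale, though CUL4B passed in both without U373neo untreated replicate 1. Of 11 measured substrates of CRL4 ligases, 2 rose and 5 fell in U373neo and 1 rose and 6 fell in U373cc3. On the deposited values 1 rose and 5 fell in U373neo and 0 rose and 6 fell in U373cc3, and with centred arrays 4 rose and 4 fell in U373neo and 2 rose and 5 fell in U373cc3. MEIS2, a homeodomain protein recognised by CRBN, changed by -2.04 and -1.93, TDG, a glycosylase degraded through DTL, by -0.94 and -0.81, and CSNK1A1, a kinase degraded through CRBN in the presence of lenalidomide, by -0.58 and -0.47.

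**Figure D4:**
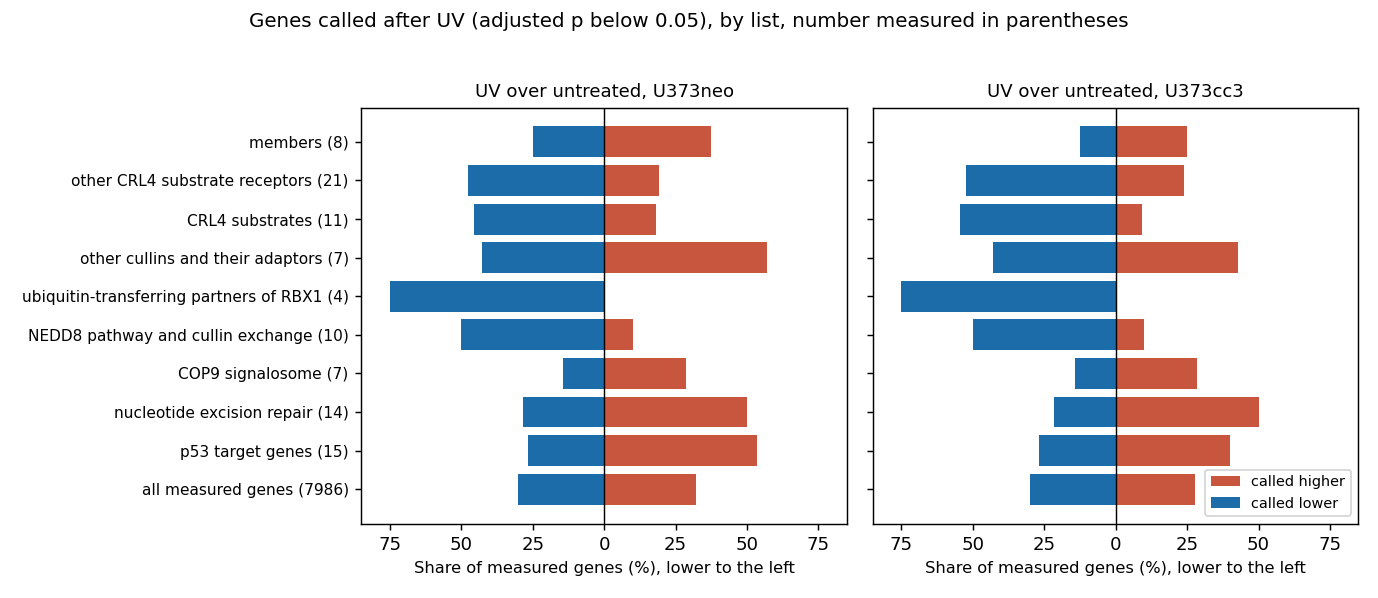
Share of measured genes (horizontal, percent) called higher (red, right) or lower (blue, left) after UV in each list (vertical, number measured in parentheses), in U373neo (left panel) and U373cc3 (right panel). The partners of RBX1, the NEDD8 list, the other receptors and the CRL4 substrates had more genes called lower than higher. The excision repair genes and p53 targets had more called higher than lower on this common scale. The last bar gives all 7986 measured genes.

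Between the clones, in untreated U373cc3 1 of 22 other receptors was higher and 4 lower, and 1 of 11 genes of the NEDD8 list was higher and 3 lower, against 21.6% of all genes higher and 17.9% lower. After UV 5 of 21 receptors were higher, among them COP1 (log2 0.53), DCAF6 (0.51) and PHIP (0.45), and 6 were lower, against 19.4% and 21.5% of all genes. The COP1 value on serial range A alone was 0.32 and did not pass. In the NEDD8 list 0 of 10 were higher and 3 lower after UV. DCUN1D2, a regulator of NEDD8 loading encoded on chromosome 13 like CUL4A, was at log2 -1.09 untreated and -1.02 after UV (adjusted p = 7.53e-07 and 1.12e-06). The CRL4 substrates, 11 measured, had 1 gene higher and 3 lower untreated, and 1 higher and 2 lower after UV. CHEK1, the checkpoint kinase and a CRL4 substrate, encoded on chromosome 11 like DDB2 and DDB1, was lower by -0.64 and -0.70. GLUL, glutamine synthetase and a CRBN substrate, was lower by -0.48 and -0.71. CDKN1A was called higher untreated (0.40) and CSNK1A1 after UV (0.29). Of the 7 measured COP9 genes, 2 were higher untreated (COPS7A and COPS6, at 0.45 and 0.21) and none after UV. The COPS7A call was lost without U373neo untreated replicate 3 or U373cc3 untreated replicate 1 or 3 (adjusted p = 0.0556 to 0.0912). The COPS6 call remained without U373cc3 untreated replicate 3 or U373cc3 UV replicate 3 and was lost without any of the other 10 (adjusted p = 0.0562 to 0.158).

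Downstream of DDB2 in the repair pathway, 7 of 14 measured excision repair genes rose and 4 fell after UV in U373neo. In U373cc3 7 rose and 3 fell. Among all genes 32.2% were called higher and 30.1% lower in U373neo, and 27.9% and 30% in U373cc3. For the repair genes the deposited values gave 6 and 3 in U373neo and 3 and 3 in U373cc3, and centred arrays 7 and 1 in both. RPA3, a subunit of the single-strand binding complex, rose by log2 1.73 and 1.46. Between the clones 1 of the 14 was higher and 2 lower in untreated U373cc3, against 21.6% and 17.9% of all genes. After UV 2 were higher and 4 lower, against 19.4% and 21.5%. ERCC5, the 3′ nuclease encoded on chromosome 13, was lower in U373cc3 by -0.79 untreated and -1.24 after UV. ERCC3 was higher by 0.38 and 0.55. Its untreated call was lost without U373neo untreated replicate 3 or U373cc3 untreated replicate 1 or 3 (adjusted p = 0.0582 to 0.0788). Of 15 measured p53 target genes, 8 rose and 4 fell in U373neo and 6 rose and 4 fell in U373cc3, while the deposited values gave 6 and 5 in U373neo and 4 and 5 in U373cc3, and centred arrays 9 and 3 in both. PLK3 rose by 1.72 and 1.54 and FDXR by 0.92 and 0.76, while PPM1D changed by -0.95 and -1.32. Between the clones 6 of 16 p53 targets were higher and 4 lower in untreated U373cc3, with PLK3 at 1.25 and TP53INP1 at -1.48. After UV 4 of 15 were higher and 4 lower. All list counts and medians are descriptions beside those of all genes.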

How the data were processed

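Amplified, Cy5-labelled RNA of 12 biological samples was hybridized to 36 human OneArray slides, 3 for each sample. Per the labels and the methods of the study, the authors scanned them, normalized by quantiles and deposited intensity values on a linear scale. Medians were 895 to 896 on untreated arrays and 746 to 748 on UV arrays, which shows that each set was scaled by itself. The array has 30968 probes. Values were present for 12300 of them on untreated arrays, for 12343 on UV arrays and for 11602 on both, and blanks were not filled. Symbols came from the platform annotation, updated through RefSeq. No detection calls or backgrounds were used here, so dim values carry an unknown floor, and the number of arrays limits the precision. The methods name a t-test, which was run as an alternative.

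The log2 intensities of 3 technical arrays were averaged, and the 12 replicate means were fitted over all 4 groups with limma 3.58.1 (R 4.3.3), with Benjamini-Hochberg adjustment over all probes and a threshold of 0.05. Clones were compared on the deposited values. UV changes, and their difference between clones, were fitted after quantile normalization of all arrays together over 11602 probes. In lists the brightest probe stood for a gene. Named were all members, up to 3 called genes a list and comparison with the furthest change, and the 5 probes most correlated with DDB2. Promoter letters were read from RefSeq windows. The fit was tested on simulated data. The members and lists were chosen with earlier results of these data known. Alternatives were arrays as units, serial ranges, a replicate block, each replicate left out, a filter on dim probes, other variance shrinkage, medians of arrays, the t-test and other scalings.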

Additional observations from a re-analysis of the deposited data

Results flagged for a closer look

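Between the clones the UV change differed, by the test of the difference itself, in 4 of the 86 measured genes listed with the ligase (4.65%, against 6.52% of all 7986 genes), none of them a member. CUL2, the scaffold of the von Hippel-Lindau ligase, changed by log2 -0.75 in U373neo and -0.25 in U373cc3 (difference 0.50, SE 0.10, limma adjusted p = 0.0170), and this call held with each replicate left out. UBE2R2 changed by -1.45 and -1.07 (difference 0.39, adjusted p = 0.0466). CDKN1A, which encodes p21, a substrate of DTL, changed by 0.50 and -0.02 (difference -0.52, adjusted p = 0.0469). BTG2, a p53 target, changed by -0.26 and 0.20 (difference 0.46, adjusted p = 0.0424). In untreated U373cc3 over U373neo, CDKN1A stood at log2 0.40, BTG2 at -0.43 and UBE2R2 at -0.28 (limma adjusted p = 0.00600, 0.00179 and 0.00989). After UV they stood at -0.10, 0.01 and 0.09 and did not pass. CUL2 went the other way, at -0.08 untreated (not called) and 0.44 after UV (adjusted p = 4.30e-04). The calls of the difference of UV changes in UBE2R2, CDKN1A and BTG2 were each lost when single replicates were left out. UBE2R2 kept its call without U373neo untreated replicate 1 or U373cc3 UV replicate 3 (otherwise 0.0599 to 0.108), CDKN1A without U373neo untreated replicate 2 or U373neo UV replicate 1 (otherwise 0.0558 to 0.110), and BTG2 lost it without any of the 12 (0.0520 to 0.105).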

How the results depend on the processing

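The DDB2 calls between the clones and after UV, the DDB1 calls between the clones and the UV calls of DTL and the second DDA1 probe kept their direction and their side of the threshold under all alternatives run. Some counts moved by over 1.5 times. The t-test of the methods, with Benjamini-Hochberg adjustment, called 3050 probes against 4619 between the untreated clones, and 3 member probes against 6 for UV in U373neo. Serial range A alone left 2 member probes against 4 between the clones after UV. The UV changes differed between the clones for 716 probes, which became 1404 with arrays as units, 1803 with serial range added and 230 to 977 with a replicate left out. The causes were not tested.

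Samples that shared a replicate number did not deviate together as a rule (r -0.338 to 0.367, 6 of 18 pairs over 0.1, 5 of 18 correlating best with their own number). The number was therefore left out of the main fit, and whether such samples were handled together was not tested. A replicate block gave 448 probes for that difference, ended the calls of CUL4B after UV (adjusted p = 0.0577), of RBX1 after UV in U373neo (0.0596) and U373cc3 (0.0724) and of the first DDA1 probe in U373neo (0.0739), and changed no other member call.

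Log2 values that changed sign were not called before or after. Between the untreated clones these were RBX1 0.0491 and the second DDA1 probe 0.0207 with serial range added, and DTL -0.0678 in range A. After UV they were RBX1 0.0970 and the second DDA1 probe 0.0333 with serial range added, RBX1 0.0277 in range A, and the DDA1 probes -0.0120 and 0.0085 with medians of arrays. For UV in U373neo they were DDB1 -0.0364 with serial range added and -2.19e-05 in range A, CUL4A 0.0122 in range A and 0.0306 with medians, and CUL4B -0.0283 as deposited, and in U373cc3 DDB1 0.129 centred. In the difference of UV changes they were CUL4A 0.0034, CUL4B -0.0015, RBX1 0.0504 and the DDA1 probes 0.0016 and 0.0138 with serial range added, CUL4B -0.224, RBX1 0.0649 and the first DDA1 probe 0.131 in range A, and RBX1 0.0152 and the second DDA1 probe 0.0687 with medians.

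Leaving out a replicate moved the untreated clone difference of RBX1 between -0.0703 and 0.0371, of the second DDA1 probe between -0.0551 and 0.0532 and of DTL between -0.0217 and 0.144. After UV RBX1 ranged from -0.0618 to 0.0136, the DDA1 probes from -0.0084 to 0.140 and from -0.0565 to 0.0152, and CRBN from -0.0459 to 0.0643. The UV change of DDB1 ranged from -0.0100 to 0.0537 in U373neo and from -0.0858 to 0.0343 in U373cc3, and that of CUL4A in U373neo from -0.191 to 0.0477. The difference of UV changes ranged from -0.104 to 0.0164 for DDB1, -0.127 to 0.112 for CUL4A, -0.104 to 0.145 for CUL4B, -0.0547 to 0.0565 for RBX1, and -0.156 to 0.0473 and -0.0760 to 0.0367 for the DDA1 probes. Without backgrounds or detection calls, the signal at which a dim probe stops responding is unknown here.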
